A study of Homo sapiens with 9 samples.

Results

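The mRNAs examined here encode the proteins that carry out RNA silencing and mRNA decay: 45 genes in 6 role groups, chosen by name as Argonaute and its partners, microRNA processing factors, the deadenylation, decapping and nonsense-mediated decay machinery, and RNA-binding proteins that call on it. An Ago-HITS-CLIP peak was assigned to one of them when its midpoint lay in the gene body on the same strand. Of 8460 peaks in all, 52 met this rule, 18 of 3450 in the miR-342-3p list and 34 of 5010 in the miR-342-5p list. They fell in 20 of the 45 genes (44.4%). The shares per mimic are set beside those of all protein-coding genes below. The libraries came from MDA-MB-231HM (231HM), a highly metastatic variant of a human triple-negative breast cancer cell line, labelled as wild type. Cells were transfected for 48 h at 20 nM with a mimic, a synthetic duplex that loads a chosen strand into Argonaute. The 3 groups, of 3 replicates each, received miR-342-3p, miR-342-5p or a negative control sequence. Argonaute was crosslinked to the RNA it held by UV light, immunoprecipitated with an antibody to Ago2, and the attached RNA fragments were sequenced. A peak is a stretch of the genome where reads exceeded those of the negative control mimic, and its score is described as the number of reads above background, with 5 the lowest score listed. Each list merges its replicates and both rest on the same control libraries, so there is no SD between replicates, depth per library is unknown, and the 95% confidence intervals (CI, Wilson) cover counting error alone. RNA levels were not analysed here. A gene without a peak may be one that 231HM cells barely transcribe, and a score follows the amount of an mRNA as well as the share of it that Argonaute holds.

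MicroRNAs act through these very proteins. An Argonaute protein holds the microRNA and pairs its seed, the bases near the 5′ end, with an mRNA. A TNRC6 protein then binds Argonaute and recruits the CCR4-NOT and PAN2-PAN3 deadenylases, which shorten the poly(A) tail, after which DCP2 and its cofactors remove the cap and XRN1 degrades the body of the message. ZFP36 proteins bring the same deadenylases to mRNAs with AU-rich elements, and UPF1 with the SMG proteins removes mRNAs with premature stop codons. An mRNA of this list held by Argonaute therefore encodes a part of the apparatus that Argonaute itself uses.

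The mature strands (RefSeq, 23 nt and 21 nt) are shown first, because every site below is read from them. Capitals mark the seed, bases 2 to 8 from the 5′ end.
miR-342-3p: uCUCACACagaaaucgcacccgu
miR-342-5p: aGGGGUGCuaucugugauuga
An 8mer site pairs with the whole seed and has an A opposite the first base and is GUGUGAGA for miR-342-3p and GCACCCCA for miR-342-5p. A 7mer-m8 lacks that A and so reads GUGUGAG or GCACCCC, a 7mer-A1 lacks the pair at the last seed base and reads UGUGAGA or CACCCCA, and a 6mer lacks both. Sites were searched within 50 nt of a peak's summit, and the distance of a site found there is that of its centre. Distances to a site farther off run to its nearer edge in the spliced mRNA.

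The following 30-nt stretches on hg19 show what the mimics met in these mRNAs. They hold the site of the highest-scoring peak with a 7mer or 8mer for each mimic in each role group that had one (that of AGO2 is not printed and the next in its group is given), with the site in capitals. They are written 5′ to 3′ as RNA and lie inside the exon.
TNRC6B, miR-342-3p, 8mer in the 5′UTR (chr22:40573955-40573984, plus strand): agagggagaguGUGUGAGAgagaguuaguu
TNRC6B, miR-342-5p, 7mer-A1 in the coding sequence (chr22:40711987-40712016, plus strand): uggcugguucuucacaaucuCACCCCAcag
CNOT3, miR-342-5p, 7mer-m8 in the coding sequence (chr19:54652018-54652047, plus strand): cccgcccccgcaGCACCCCcaagugcccug
UPF1, miR-342-3p, 7mer-m8 in the 3′UTR (chr19:18977432-18977461, plus strand): ugaagcaccacuGUGUGAGcaacaggaagg
SMG5, miR-342-5p, 7mer-A1 in the 3′UTR (chr1:156220279-156220308, minus strand): gcaccuguaguCACCCCAccacacgcagac
ZFP36, miR-342-5p, 7mer-A1 in the coding sequence (chr19:39898761-39898790, plus strand): caggccaaucgcCACCCCAaauacaagacg
The sites of miR-342-5p centre on a run of C, and those of miR-342-3p begin with alternating G and U. The remaining 8mers near a summit, chosen after their values were seen, were in SMG5 and TNRC6C.
SMG5, miR-342-3p, coding sequence (chr1:156238098-156238127, minus strand): caacugaagaaGUGUGAGAcucggaaacug
TNRC6C, miR-342-5p, coding sequence (chr17:76087610-76087639, plus strand): ccccaguggacGCACCCCAacuccauggau

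Many peaks had no such site, among them the highest of each mimic. Some of their summits, also chosen after their values were seen, are shown for the sequence under peaks that lack a seed match.
EDC4, score 275, coding sequence (chr16:67917485-67917514, plus strand): ugaccugaaccuggugcuguauguguguga
CNOT8, score 146, coding sequence (chr5:154244762-154244791, plus strand): uuccagguguuguggugcgaccaauuggug
DCP2, score 128, 3′UTR (chr5:112350440-112350469, plus strand): gggguguuugaguauaugugugugugugua
DCP1A, score 56, 3′UTR (chr3:53321331-53321360, minus strand): gagagcgaucauuguguuaaguuauguggg
LSM14A, score 44, 3′UTR (chr19:34718698-34718727, plus strand): ugugugugugugugugugugugugugugug
ZFP36L1, miR-342-5p, score 215, coding sequence (chr14:69256516-69256545, minus strand): cuacccugcccgauggcaccaauaacccuu
Those above ZFP36L1 belong to miR-342-3p. GU repeats stood at the DCP2 and LSM14A summits, where the longest runs of strictly alternating G and U were 13 and 39 nt. At those of EDC4, CNOT8 and DCP1A such alternating runs were 8, 4 and 5 nt long. The EDC4 window held an 8mer of miR-342-3p with 1 mismatch.

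MiR-342-3p had a peak in 12 of 45 genes (26.7%, CI 16–41.0%) and miR-342-5p in 13 (28.9%, CI 17.7–43.4%). Among the 20163 annotated protein-coding genes the share was 11.8% with either mimic (2372 genes and 2377 genes), a background that includes genes these cells may not transcribe. Both mimics had a peak in 5 members (AGO2, TNRC6B, PABPC1, DCP1A and SMG5), which is 41.7% of the members that miR-342-3p reached, 38.5% of those that miR-342-5p reached and 11.1% of all 45. Over all protein-coding genes the same shares were 34.5%, 34.5% and 4.06%, and most genes that a mimic reached were reached by it alone in both sets. MiR-342-3p alone had a peak in 7 (AGO1, CNOT8, DCP2, EDC4, LSM14A, UPF1 and PUM2), and miR-342-5p alone in 8 (TNRC6A, TNRC6C, XPO5, CNOT2, CNOT3, ZFP36, ZFP36L1 and ZFP36L2). No test was made on these shares, since the genes were chosen with results of these data known.

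**Figure D1:**
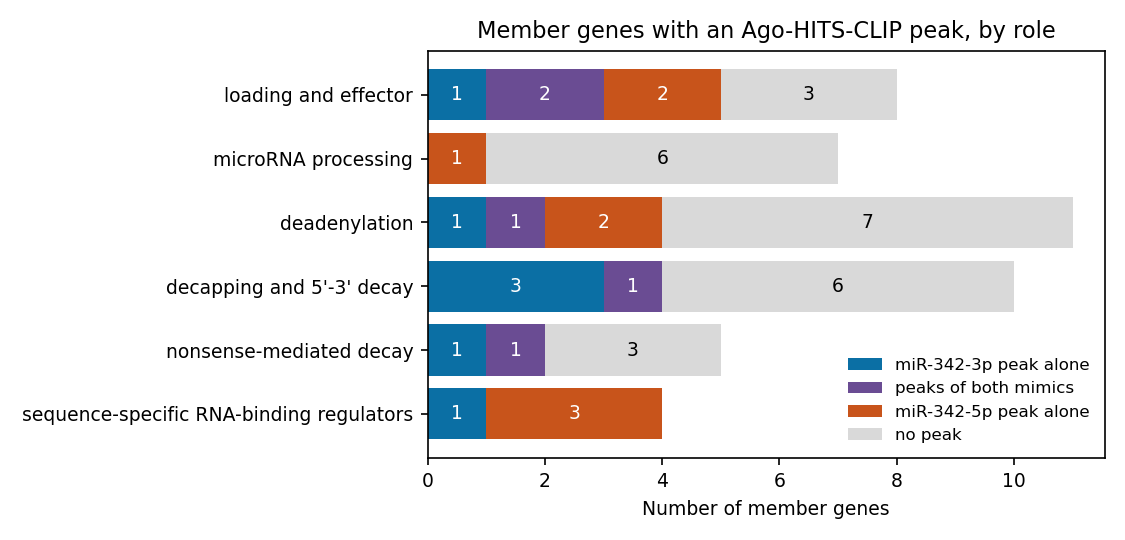
Number of member genes (x axis) in each of the 6 role groups (rows), coloured by which mimic had a peak. Of 10 decapping genes 4 had a miR-342-3p peak and 1 a miR-342-5p peak, 1 of them with both, whereas of 4 RNA-binding regulators 1 and 3 did. Over all protein-coding genes 11.8% had a miR-342-3p peak, 11.8% a miR-342-5p peak and 4.06% both. These counts were not tested.

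Of the 8 loading and effector genes, 3 had a miR-342-3p peak and 4 a miR-342-5p peak, 2 of them with both. Over all protein-coding genes the shares were 11.8% with each mimic and 4.06% with both, and no test was made. AGO2, the slicing Argonaute, had the highest peak of the group with miR-342-3p, score 137 (chr8:141540224-141540315, minus strand), 1873 nt past the stop codon in the 3′UTR, with a 7mer-m8 23 nt from the summit. A weaker miR-342-3p peak (score 12) and both miR-342-5p peaks (scores 34 and 19) lay in its coding sequence, none of them near a 7mer or 8mer. AGO1, a close relative that does not slice efficiently, had 1 miR-342-3p peak of score 12 in the coding sequence. AGO3 and AGO4 had none, nor did MOV10, an RNA helicase that associates with Argonaute. The 3 TNRC6 genes, which encode the scaffold between Argonaute and the deadenylases, all had miR-342-5p peaks. TNRC6B had 5, at scores of 53 (chr22:40711950-40712016), 51 (chr22:40708534-40708611), 47 (chr22:40711392-40711511), 15 and 12, and each of the 3 highest held a 7mer. TNRC6C had 2, with scores of 13 at the 8mer shown above (chr17:76087545-76087660) and 9. TNRC6A had 1 of score 40 without a site. All 8 of these peaks lay late in the coding sequence, with midpoints between 77.5% and 95% of its length, the part that encodes the C-terminal silencing region of TNRC6 proteins. The single miR-342-3p peak of the family, score 16, was at the far end of the message, in the 5′UTR of TNRC6B (chr22:40573931-40574009), with its 8mer 1 nt from the summit.

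Of the 7 processing factors, 0 had a miR-342-3p peak and 1 a miR-342-5p peak, counts too small to set apart from the 11.8% of all protein-coding genes. XPO5, which exports microRNA precursors from the nucleus, had 2 miR-342-5p peaks in the coding sequence with scores of 51 (chr6:43493577-43493659, minus strand) and 16. The higher one had a 6mer. DROSHA and DGCR8, which cut the primary transcript, DICER1, which cuts the precursor, its partners TARBP2 and PRKRA, and LIN28B, a blocker of let-7 maturation, had no peak of either mimic.

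Of the 11 deadenylation genes, 2 had a miR-342-3p peak and 3 a miR-342-5p peak, beside 11.8% of all protein-coding genes with each mimic. These small counts were not tested. CNOT8, a catalytic deadenylase of the CCR4-NOT complex, had miR-342-3p peaks of score 146 (chr5:154244752-154244801) and 54 (chr5:154242944-154242955) and no site for this microRNA anywhere in its mRNA. These 2 peaks are 1796 nt apart on the genome but meet at a splice junction with a gap of 0 nt in the spliced mRNA, so they mark 1 bound stretch of the mature message. CNOT3, a structural subunit of the complex, had 6 miR-342-5p peaks, none above a score of 18 (chr19:54651989-54652061). They formed 2 clusters in the coding sequence. The first held both CNOT3 7mer-m8 sites, under the peaks of score 18 and 14 (chr19:54652063-54652190). CNOT2, its partner subunit, had a miR-342-5p peak of score 14 without a site. PABPC1, the abundant poly(A)-binding protein, had a miR-342-5p peak of score 158 over the start of its coding sequence (chr8:101733692-101733883, minus strand) with a 6mer, a peak of score 6 next to it in the 5′UTR, and a miR-342-3p peak of score 20 in the coding sequence. The window of the 158 peak is the single one of 52 with near-copies elsewhere in the genome (3), so its reads may be shared with those copies. The scaffold CNOT1, the deadenylases CNOT6, CNOT6L and CNOT7, the ubiquitin ligase CNOT4, and the PAN2-PAN3 pair had no peak.

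Of the 10 decapping and decay genes, 4 had a miR-342-3p peak (6 peaks) and 1 a miR-342-5p peak (1 peak). Over all protein-coding genes the share was 11.8% with each mimic, and no test was made. Among the 17 further decapping and repression genes counted below, 3 had a miR-342-3p peak and 4 a miR-342-5p peak. EDC4, the scaffold of the decapping complex, held the highest peak of all members, score 275 (chr16:67917471-67917576), 92.8% of the way through the coding sequence. A peak of score 14 abutted it across a splice junction (gap of 0 nt in the mRNA, 390 nt on the genome). An annotated non-coding gene, ENSG00000263126, covers both on the same strand, so their reads cannot be assigned to EDC4 alone. DCP2, the decapping enzyme, had a 3′UTR peak of score 128 (chr5:112350382-112350475) 573 nt from the nearest 7mer in the mRNA. DCP1A, its activator, had adjoining 3′UTR peaks of score 56 (chr3:53321325-53321385) and 21 for miR-342-3p, 2413 and 2474 nt from the nearest site, and a coding peak of score 18 with a 6mer for miR-342-5p (chr3:53326514-53326647). LSM14A, a translational repressor found in P-bodies, had a 3′UTR peak of score 44 on the GU repeat shown above. None of the 6 miR-342-3p peaks in this group had a 7mer or 8mer. DCP1B, EDC3, PATL1 and the helicase DDX6, which promote decapping, and the exonucleases XRN1 and XRN2 had no peak.

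Within nonsense-mediated decay, UPF1, the central helicase, had 3 miR-342-3p peaks in its 3′UTR. The one of score 36 (chr19:18977409-18977469) covered the only miR-342-3p 7mer in the mRNA, its centre 2 nt from the summit, and a pair of score 43 (chr19:18978481-18978535) and 10 followed after a gap of 998 nt without a site. SMG5, which bridges UPF1 to decay enzymes, was, like TNRC6B, a member in which each mimic had a peak on its own seed site. The miR-342-3p peak of score 23 (chr1:156238091-156238152, minus strand) had its summit inside the 8mer in the coding sequence, and the miR-342-5p peak of score 22 (chr1:156220245-156220326) lay on a 7mer-A1 in the 3′UTR, 92 nt past the stop codon by its midpoint, with a second miR-342-5p peak of score 10 beside it. UPF2, the kinase SMG1 and the endonuclease SMG6 had no peak.

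Of the 4 RNA-binding regulators, 1 had a miR-342-3p peak and 3 a miR-342-5p peak, beside 11.8% of all protein-coding genes with each mimic. These small counts were not tested. The ZFP36 family carried 10 of the 34 miR-342-5p peaks of the members. ZFP36 (tristetraprolin) had 6, with scores of 100 (chr19:39898681-39898985), 41, 36 (chr19:39898987-39899236), 29, 25 and 13 (chr19:39899239-39899285). Those downstream of the 5′UTR followed each other with gaps of 1 to 4 nt, and the peaks covered 88.0% of its 981-nt coding sequence and none of the 3′UTR of the MANE Select transcript. All 4 of its 7mers lay under them. The peaks of score 41 and 25 were counted in a 3′UTR because of an alternative transcript and are coding in the MANE Select transcript, the reference isoform. ZFP36L1 had 3 peaks over 43.4% of its coding sequence, with scores of 215 (chr14:69256435-69256561, minus strand), 83 (chr14:69256597-69256711) and 73 (chr14:69256981-69257179). The 2 lower ones had a 7mer near the summit. The highest had none within 50 nt, the nearest 7mer-A1 being 52 nt away in the gap between it and the peak of score 83. ZFP36L2 had 1 peak of score 10 in the 5′UTR. Despite their related coding sequences, no window of these 3 genes had a near-copy in the genome. PUM2, which binds the Pumilio element, had no miR-342-5p peak and a miR-342-3p peak of score 43 in the coding sequence (chr2:20455866-20455931, minus strand) without a site.

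**Figure D2:**
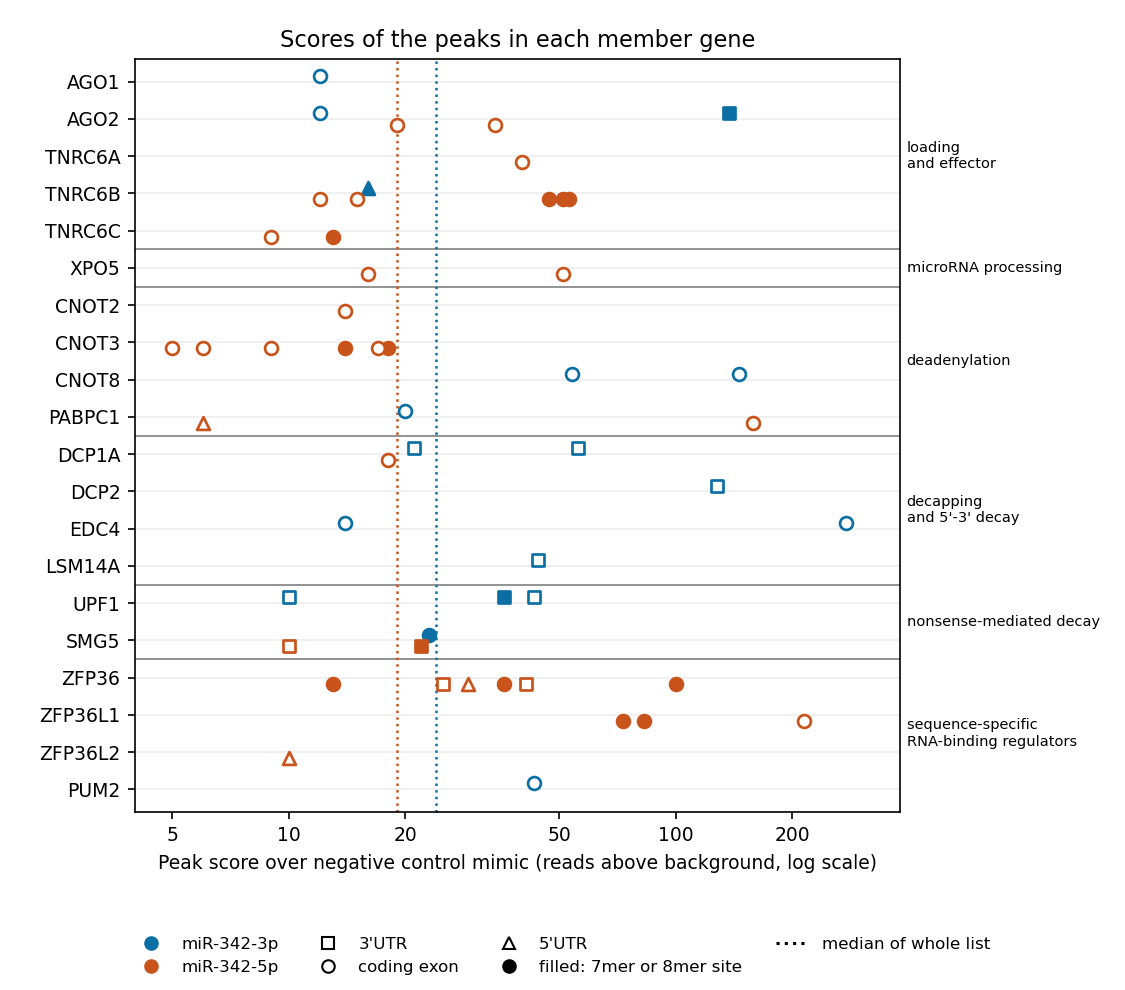
Score of each of the 52 peaks (x axis, log scale) in the 20 genes that had one (rows, by role). Colour gives the mimic, shape the location, filled symbols a 7mer or 8mer within 50 nt of the summit, and dotted lines the medians of the whole lists, 24 and 19. EDC4 (275) and ZFP36L1 (215) hold the highest peaks of each mimic, both open symbols.

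The scores of the members are given beside those of the whole lists. The median was 39.5 for miR-342-3p (18 peaks, range 10–275, CI of the median from order statistics 16–56) and 18.5 for miR-342-5p (34 peaks, range 5–215, CI 14–40), beside 24 and 19 for the whole lists. Both CIs include the median of the whole list, but they are wide and do not show that the scores are alike. A score above 50 was reached by 6 of 18 and 8 of 34 peaks, beside 832 (24.1%) and 853 (17.0%) of the whole lists. A score above 100 was reached by 4 and 2, beside 374 of 3450 and 361 of 5010. These shares were not tested. The miR-342-3p peaks above 50 lay in AGO2, CNOT8, DCP1A, DCP2 and EDC4, and those of miR-342-5p in TNRC6B, XPO5, PABPC1, ZFP36 and ZFP36L1. No gene was in both sets of 5. Among all protein-coding genes with a peak above 50, 131 were in both, which is 18.7% of the 699 with miR-342-3p and 22.8% of the 575 with miR-342-5p.

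Location differed between the mimics. Of the miR-342-3p peaks 8 of 18 (44.4%, CI 24.6–66.3%) were in a 3′UTR, in AGO2, DCP1A, DCP2, LSM14A and UPF1, against 4 of 34 miR-342-5p peaks (11.8%, CI 4.67–26.6%), which were in SMG5 and ZFP36. By a two-sided Fisher's exact test the shares differed (32.7 percentage points, odds ratio 6.0, p = 0.0140), but peaks of 1 gene are not independent and the test counts them as if they were. With the highest peak per gene alone the difference was 34.0 points (5 of 12 against 1 of 13, p = 0.0730 by the same exact test), and without the UPF1 peaks 21.6 points (exact p = 0.110), so the call does not hold per gene or without UPF1. In the whole lists 33.7% and 17.4% of peaks were in a 3′UTR, so the members' difference runs the same way as that of all peaks. For coding exons the counts were 9 of 18 (50%, CI 29.0–71.0%) with miR-342-3p and 27 of 34 with miR-342-5p (79.4%, CI 63.2–89.7%), beside 55.5% and 70.0% of the whole lists. That difference of -29.4 points, with an odds ratio of 0.259, missed the threshold of 0.05 (p = 0.0558, the same exact test). It passed with coding exons taken first, which moves the 2 ZFP36 peaks named above (-35.3 points, exact p = 0.00970), and with peaks placed by summit (-32.4 points, exact p = 0.0237). The 5′UTR held 1 and 3 peaks (5.56% and 8.82%), beside 2.87% and 3.71% of the whole lists. No member peak was in an intron (0 of 18, CI up to 17.6%, and 0 of 34, CI up to 10.2%). In the whole lists 3.65% and 4.77% were, shares that lie inside these CIs.

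**Figure D3:**
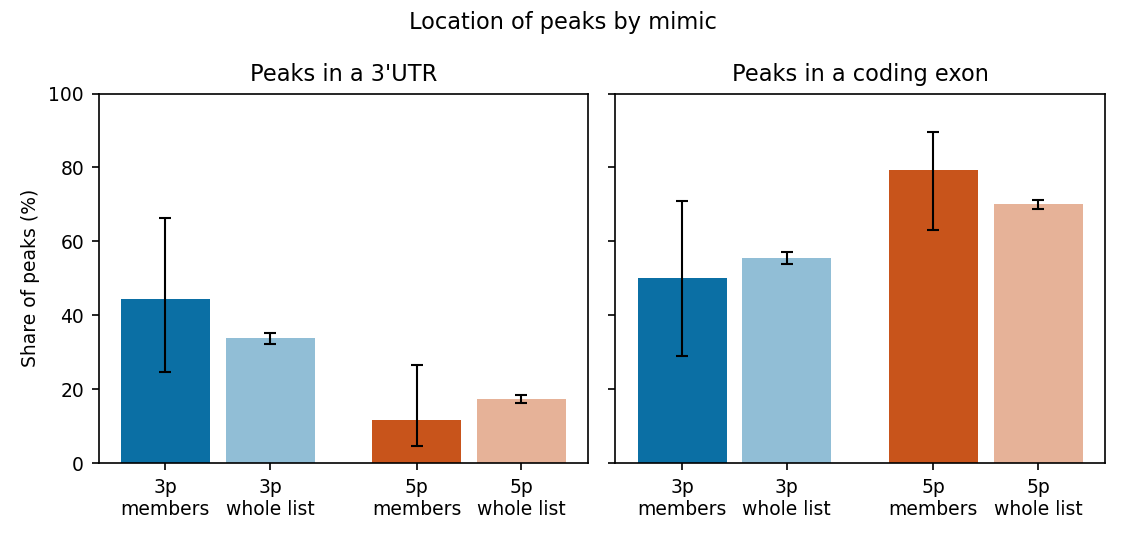
Share of peaks (y axis, %) in a 3′UTR (left) and in a coding exon (right) for members (dark bars) and the whole list (pale bars) of each mimic, with 95% Wilson intervals as error bars. Among members, 44.4% of miR-342-3p and 11.8% of miR-342-5p peaks lay in a 3′UTR.

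The peaks followed the spliced messages. Of the members' peaks, 7 of 18 and 9 of 34 ended exactly at an exon boundary of the MANE Select transcript. The same count was not made for the whole lists, so it cannot be called particular to the members. Besides the pairs in CNOT8 and EDC4, the 2 XPO5 peaks met across a junction with a gap of 0 nt in the mRNA, although 763 nt apart on the genome. When peaks within 50 nt of each other in the mRNA were joined, the 18 miR-342-3p peaks formed 14 regions and the 34 miR-342-5p peaks formed 20.

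**Figure D4:**
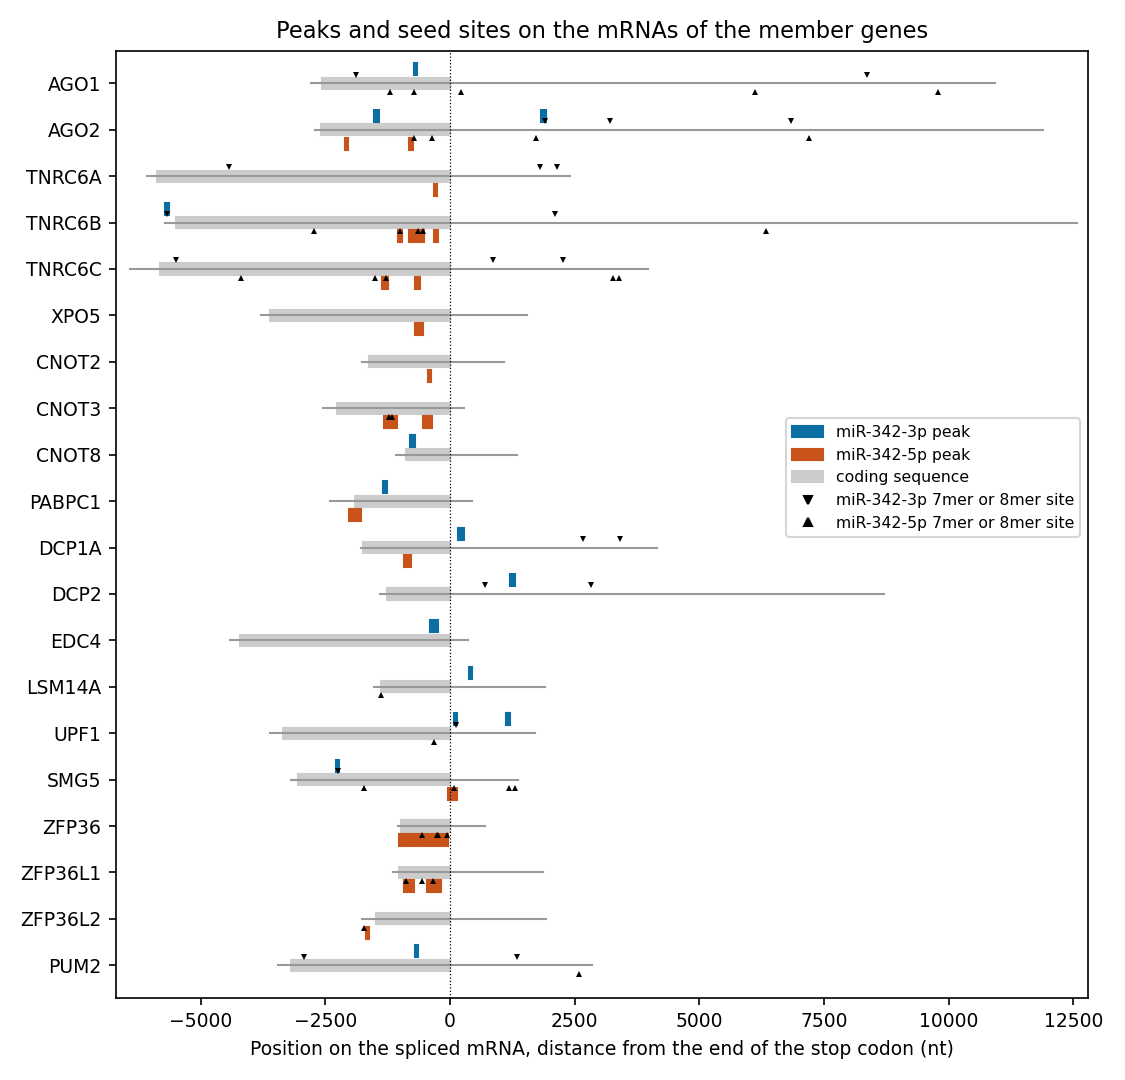
Spliced mRNAs of the 20 genes, aligned at the end of the stop codon (x axis, nt), with coding sequence in grey, miR-342-3p peaks and sites above and miR-342-5p peaks and sites below each line. Peaks are drawn at least 60 nt wide. The miR-342-5p peaks of the TNRC6 genes sit near the end of the coding sequence, those of ZFP36 fill it, and the decapping mRNAs DCP1A, DCP2 and LSM14A carry miR-342-3p peaks past the stop codon.

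A 7mer or 8mer of the transfected microRNA lay within 50 nt of the summit in 4 of 18 miR-342-3p peaks (22.2%, CI 9.0–45.2%), in AGO2, TNRC6B, SMG5 and UPF1. For miR-342-5p it did so in 12 of 34 peaks (35.3%, CI 21.5–52.1%), in TNRC6B, TNRC6C, CNOT3, SMG5, ZFP36 and ZFP36L1. The whole lists had 20.6% and 32.9%. As background, the opposite strand was searched in these windows, and it held none (0 of 18 and 0 of 34, with the same upper limits of 17.6% and 10.2%). The excess over the opposite strand passed an exact McNemar test for miR-342-5p over peaks (two-sided, p = 0.000488). The 12 peaks came from 6 genes, and with the highest peak per gene it did not pass (5 of 13 against 0, exact p = 0.0625). For miR-342-3p it could not, as 4 windows allow no p below the 0.125 found. The 8mers numbered 2 (11.1%) with miR-342-3p and 1 (2.94%) with miR-342-5p, beside 8.26% and 9.02% of the whole lists. Windows with a 6mer alone numbered 0 and 7 (20.6%), beside 3.19% and 15.8%. Those with no match numbered 14 (77.8%) and 15 (44.1%), beside 76.2% and 51.3%. Among the 14 unmatched miR-342-3p windows, those of EDC4 and PUM2 held an 8mer with 1 mismatch, and none of the 15 for miR-342-5p did, beside 16.7% and 15.9% of the unmatched windows of the whole lists. Runs of strictly alternating G and U of at least 12 nt were in 3 of the 18 miR-342-3p windows (AGO2, DCP2 and LSM14A, 16.7%, beside 10.3% of the whole list). They were in 0 of the 34 for miR-342-5p, beside 0.0998% of the whole list. The median GC content of the windows was 47.5% and 63.9%, beside 49.5% and 59.4% in the whole lists.

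Read from the side of the sites, most were not under a peak. The MANE Select mRNAs of members with a peak of either mimic held 21 miR-342-3p and 36 miR-342-5p 7mers and 8mers. Of these, 4 (19.0%) and 12 (33.3%) lay under a peak of their own mimic. Some of these members had no peak of the mimic whose sites were counted. For miR-342-5p, 11 of 23 coding sites were under a peak (47.8%, CI 29.2–67.0%) and 1 of 12 3′UTR sites (8.33%, CI 1.49–35.4%). All genes with a peak of either mimic had 46.8% and 23.1%. For miR-342-3p, 2 of 15 3′UTR sites and 1 of 5 coding sites were covered (13.3% and 20.0%), beside 17.4% and 26% in all genes with a peak. The 8mer in the 3′UTR of DCP1A was not among them, although miR-342-3p had peaks in the same 3′UTR. AGO2 had 3 miR-342-3p sites in its 3′UTR and a peak on 1. TNRC6C had an 8mer for miR-342-5p in the 3′UTR without a peak, and its covered 8mer lay in the coding sequence. Conversely, 4 of the 12 members with a miR-342-3p peak (CNOT8, EDC4, LSM14A and PABPC1) and 5 of the 13 with a miR-342-5p peak (TNRC6A, XPO5, CNOT2, PABPC1 and DCP1A) had no 7mer or 8mer of that mimic anywhere in the mRNA.

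**Figure D5:**
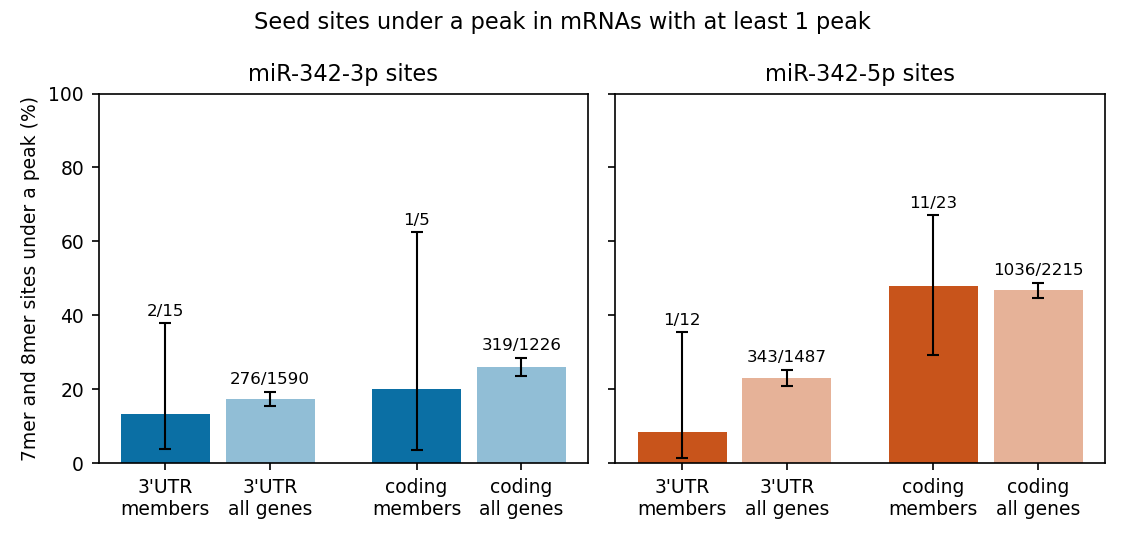
Share of 7mer and 8mer sites under a peak of their own mimic (y axis, %), by location, for members (dark) and all genes (pale). The mRNAs are those with at least 1 peak of either mimic. Error bars are 95% Wilson intervals, with the counts above the bars. Coding sites of miR-342-5p in members were covered in 11 of 23 cases and 3′UTR sites in 1 of 12.

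The 25 members without a peak were not all without sites. Their mRNAs held 23 miR-342-3p and 16 miR-342-5p 7mers and 8mers, spread over 13 and 10 genes, and 8 genes had none of either (TARBP2, PRKRA, CNOT4, CNOT6L, PAN3, DCP1B, XRN2 and UPF2). LIN28B had 4 miR-342-3p sites in its 3′UTR, an 8mer among them, DICER1 had 3 miR-342-3p sites and 1 miR-342-5p site, and AGO4 had 2 and 5, again with an 8mer. CNOT1 and PATL1 each had a coding 8mer for miR-342-5p. How strongly 231HM cells transcribe these genes was not tested.

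In the 5 genes reached by both mimics, the peaks were apart. Overlap and spacing of peaks were not counted over all genes with both, so neither can be called particular to the members. No miR-342-3p peak overlapped a miR-342-5p peak in any member, and the nearest midpoints in the mRNA were 585 nt apart in PABPC1, 603 nt in AGO2, 1050 nt in DCP1A, 2260 nt in SMG5 and 4669 nt in TNRC6B. The arrangement was not uniform. In AGO2 and DCP1A miR-342-3p had its highest peak in the 3′UTR and miR-342-5p in the coding sequence, in SMG5 this was turned round, in TNRC6B miR-342-3p was at the start of the message, and in PABPC1 the highest peaks of both were coding.

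A further 102 genes of the same pathways, listed by role, had peaks at rates like those of the members: 34 for miR-342-3p (33.3%), 32 for miR-342-5p (31.4%) and 18 for both. Over all protein-coding genes the shares were 11.8% with each mimic and 4.06% with both. The counts per role group that follow are small and were not tested against these shares. Among 16 genes of the RNA exosome and Ski complex, which degrade RNA from the 3′ end, 7 had a miR-342-3p peak and 2 a miR-342-5p peak. Among 6 genes of chaperones and Argonaute loading the counts were 0 and 2, among 13 further deadenylation genes 5 and 2, among 17 further decapping and repression genes 3 and 4, among 10 further nonsense-mediated decay genes 3 and 3, among 16 further small RNA factors 8 and 8, and among 24 further RNA-binding regulators 8 and 11. The highest peaks were stronger than any in the members. MiR-342-3p reached 928 in the 3′UTR of YTHDF1, a reader of methylated adenosine that is linked to translation, 721 in that of PNRC2, a decapping cofactor, and 398 in the coding sequence of RAN, the GTPase that XPO5 uses for export, all without a 7mer or 8mer. MiR-342-5p reached 567 and 515 in the coding sequences of HSP90AA1 and HSP90AB1, the chaperones that help load Argonaute. The latter had a 7mer-A1 and the former a 6mer.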

How the data were processed

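Ago-HITS-CLIP libraries of 231HM cells were analysed from 2 deposited peak lists, miR-342-3p and miR-342-5p mimic over negative control. The authors aligned reads to hg19 by TopHat, kept alignments of sufficient quality (Samtools) and ran MACS2, with strands called separately and replicates merged. The submitters' processing notes name cutadapt 1.13, TopHat2 2.0.13, UMI-tools and MACS2 2.1.1.20160309. The deposited score of each peak is described as reads above background. The scaling of libraries is not given in the sources used here, and a list without library values shows no depth. A low-depth region may therefore lack a peak.

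Starts were read as 0-based and printed 1-based on hg19. Peaks were placed by midpoint and strand on GENCODE release 44 mapped to GRCh37, with 3′UTRs taken first, then coding exons, then 5′UTRs. Coverage of sites and mRNA distances used MANE Select transcripts. Near-copies of peak windows (90% identity over 50% of the length) were sought with minimap2 2.31. Python 3.11.15, pandas 2.3.3, scipy 1.17.1 and pysam 0.24.0 were used. Two-sided Fisher's exact and exact McNemar tests were not adjusted for multiple testing. The site search and the placement were tested on simulated data.

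The members, their role groups and the further pathway genes were chosen with earlier results of these data known. Every member is named; positions are given for peaks with a 7mer or 8mer, a score of at least 50, or the highest score of a mimic in a role group.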

Additional observations from a re-analysis of the deposited data

How the results depend on the processing

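No paired analysis was possible because the lists merge the replicates, and no replicate could be left out for the same reason. Of 71 alternative values, 56 were classed as the same, 6 as weaker, 4 as stronger, 5 counts as moved and 0 as reversed. The tally includes counts and medians, which have no direction or p-value. The miR-342-5p median, classed as the same, went from 18.5 to 34.0 with the highest peak per gene. The miR-342-3p site test could not pass 0.05 in any setting, so the tally does not measure robustness. Scores above 50 left 6 miR-342-3p peaks in 5 genes, 8 miR-342-5p peaks in 5 genes and 0 genes with both mimics. The 3′UTR difference was then 50 points (exact p = 0.0549) and the excess of miR-342-5p sites over the opposite strand 62.5 points (exact McNemar test, p = 0.0625). With the highest peak per gene these were 34.0 points (exact p = 0.0730) and 38.5 points (exact McNemar test, p = 0.0625), and with 8mers alone the miR-342-5p excess was 2.94 points (p = 1.0). Higher scores and single peaks per gene leave fewer peaks to test. Chosen after seeing the data, leaving out UPF1 gave a 3′UTR difference of 21.6 points (exact p = 0.110). The coding difference passed 0.05 when peaks were placed by summit (-32.4 points, exact p = 0.0237), with coding exons taken before 3′UTRs (-35.3, exact p = 0.00970), without ZFP36 (-35.7, exact p = 0.0171) and without PABPC1 (-34.2, exact p = 0.0222), the last 2 also chosen after seeing the data. The cause was not tested. Reading windows on the spliced mRNA changed no count of 7mers and 8mers and turned 1 unmatched miR-342-5p window, in AGO2, into a 6mer, giving 8 with a 6mer alone and 14 with no match.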

Other observations

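Some further genes of these pathways combined a high score with a matching site. For miR-342-3p, ADAR, an RNA editing enzyme, had a 3′UTR peak of score 196 with an 8mer, DHX9, a helicase, a coding peak of score 111 with a 7mer-m8, and DIS3L, an exosome nuclease, a coding peak of score 50 with an 8mer. For miR-342-5p, LSM14B, the relative of LSM14A, had a 5′UTR peak of score 59 with a 7mer-m8, and TENT2, a poly(A) polymerase, a coding peak of score 49 with a 7mer-A1. These were chosen after their values were seen. The highest score was with miR-342-3p in LSM14A (44) and with miR-342-5p in LSM14B (59). Whether these differences exceed the spread between replicates cannot be computed from merged lists.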
